A study of Homo sapiens with 6 samples.

Results

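Cholesterol and fatty acid synthesis were followed through 36 genes in HCT116, an established colorectal carcinoma line. The members were taken from the deposited expression table by gene symbol, 24 of them sterol genes and 12 fatty acid genes, and all 36 were among its 14987 genes. The libraries came from cells with the YAP interference constructs shYAP1 or shYAP3 and from NC cells, whose genotype is labelled wild type. Each was sequenced once after 6 h of glucose deprivation and once in control medium, which gave 6 libraries. The sources used here do not say whether the cells were clones or pools. Nor do they say whether the cultures were independent, so the p-values measure only the spread between these libraries, which may be technical.

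Both pathways build on cytosolic acetyl-CoA. The mevalonate pathway turns it into isoprenoid units, which are joined to squalene, closed to lanosterol and trimmed to cholesterol. Fatty acid synthesis carboxylates it to malonyl-CoA, joins these units to palmitate, and then desaturates and lengthens the chain. The transcription factors SREBP-1 and SREBP-2, encoded by SREBF1 and SREBF2, switch on genes of both pathways. They are held in the endoplasmic reticulum with SCAP by the INSIG proteins when sterols are plentiful, and SREBP-1c also responds to the carbohydrate supply in liver.

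Promoter sequences are shown for 4 members: LSS and STARD4, the sterol members that differed most between media, ACLY, at the branch point of acetyl-CoA, and SREBF2, the only member among the 32 with a window to match the sterol regulatory element. They are from the RefSeq promoter table (GRCh38.p14), read in the direction of transcription. Capitals mark CCAAT, the core bound by NF-Y, or its reverse complement ATTGG, and in SREBF2 also TCACCCCAC, a match to the sterol regulatory element TCACNCCAC. The LSS stretch, chr21:46228825-46229024 on the minus strand, lies 250 to 51 bases before the start, with its ATTGG beginning at -150.
LSS: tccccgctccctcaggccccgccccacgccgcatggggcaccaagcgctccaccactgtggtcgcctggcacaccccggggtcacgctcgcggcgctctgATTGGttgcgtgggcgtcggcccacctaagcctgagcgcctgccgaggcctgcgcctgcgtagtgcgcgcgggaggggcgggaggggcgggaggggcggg
The other 3 stretches cover the 250 bases before the start: STARD4 at chr5:111512536-111512785 on the minus strand, ACLY at chr17:41919023-41919272 on the minus strand and SREBF2 at chr22:41832855-41833104 on the plus strand. STARD4 holds CCAAT at -161 and -130, and ACLY holds the motif at -65 and -23.
STARD4: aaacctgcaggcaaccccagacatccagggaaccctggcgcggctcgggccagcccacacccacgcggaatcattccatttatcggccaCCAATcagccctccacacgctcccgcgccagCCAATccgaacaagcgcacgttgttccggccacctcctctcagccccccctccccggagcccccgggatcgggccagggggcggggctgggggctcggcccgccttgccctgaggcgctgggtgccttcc
ACLY: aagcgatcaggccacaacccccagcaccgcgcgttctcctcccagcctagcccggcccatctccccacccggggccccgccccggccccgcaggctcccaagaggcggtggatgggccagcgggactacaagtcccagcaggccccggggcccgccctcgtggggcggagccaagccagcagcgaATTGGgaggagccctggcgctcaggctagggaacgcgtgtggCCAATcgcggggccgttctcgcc
In SREBF2 the sterol regulatory element match begins at -133 and the ATTGG at -106.
SREBF2: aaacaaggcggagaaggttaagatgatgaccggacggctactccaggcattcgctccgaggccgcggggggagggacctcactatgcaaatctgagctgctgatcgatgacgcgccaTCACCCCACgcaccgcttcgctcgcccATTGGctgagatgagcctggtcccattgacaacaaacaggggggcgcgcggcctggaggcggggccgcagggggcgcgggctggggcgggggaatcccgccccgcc

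The table held windows of 250 bases before to 50 after the start for 32 of the 36 members. ACAT2, FASN, FDFT1 and SQLE were not matched. CCAAT, on either strand, was in the windows of 25 of the 32 members, 16 of 21 sterol and 9 of 11 fatty acid members, against 43.4% of the 9276 tested genes with a window and 34.6% of all 35116 windows. TCACNCCAC was in 1 of 32, against 1.49% of tested genes and 1.13% of all windows. CACGTG, the palindromic E box to which SREBP-1 can also bind, was in 5 of 32 (SCAP, ELOVL5, INSIG1, SC5D and LSS), against 12.7% of tested genes and 7.26% of all windows. The motifs were counted separately and can share end letters, as TCACNCCAC can with CACGTG. A gene was counted when any of its windows held the motif, and a match describes letters and not a bound site.

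Values are normalized read counts as deposited, in which each library has a fixed worth per read, so that whole reads could be recovered. The libraries held 16912634 to 22161075 reads in listed genes. Member depth ran from ACACB, with 87, 47 and 99 reads in deprived shYAP1, shYAP3 and NC cells and 196, 174 and 204 in control cells, to SCD, with 16617 to 72286 reads. YAP1 was at 20.3, 18.2 and 154 in deprived shYAP1, shYAP3 and NC cells, against 35.7, 38.2 and 188 in control medium (shYAP against NC, log2 change -2.63, SE 0.17, limma adjusted p = 0.00082). Of 8 markers of colorectal epithelium 7 were listed, at 0.391% to 0.614% of reads, whereas markers of fibroblasts (3 of 6 listed), leukocytes (4 of 6) and endothelium (3 of 5) each summed to at most 0.00224%. CDX1, a defining intestinal factor, was not among the listed genes. CDX2 (5.75 to 14.2) and VIL1 (1.12 to 3.72) were low beside the keratin KRT8 (1642 to 3250). The leukocyte marker CD68 was at 4.80 to 15.9. Some markers moved with medium: of 7 epithelial markers tested KRT8 (0.65) and EPCAM (0.52) were among 3 higher and CDX2 (-0.81) was lower, of 2 leukocyte markers HLA-DRA (0.84) and CD68 (0.71) were higher, and the 1 fibroblast marker tested, COL1A1 (-0.75), was lower, all as log2 changes on deprivation. Their part in the results was not tested. Relative to the mean of the 6 libraries, the shortest 10% of genes had a median log2 difference of 0.14, 0.43 and -0.08 in deprived shYAP1, shYAP3 and NC cells, against -0.15, -0.19 and -0.18 in control cells. The longest 10% were at -0.08, -0.29 and 0.04 in deprived and 0.12, 0.11 and 0.10 in control cells of these constructs. This tilt moved with medium in every construct and was largest in the deprived shYAP3 library, so results are also given without that library and with the trend removed.

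In the response to glucose deprivation, ACLY, ACACA and FASN, which lead from citrate to palmitate, fell, while most sterol genes did not pass the test. The mitochondrial-membrane carboxylase ACACB fell as well. With length and GC trends removed, ACACA and ACACB no longer passed, and the contrast between the branches has no test. Of 12 fatty acid members 5 fell (ACLY, ACACA, ACACB, FASN and ELOVL6) and 1 rose (ELOVL1). Of 24 sterol members 2 fell (LSS and SQLE) and 2 rose (STARD4 and TM7SF2). Over the 12263 genes tested, 15.6% were called lower and 16.5% higher, so the falling fatty acid count (41.7%) lay above the background and both sterol counts (8.33%) below it. This order was not the same under every setting. With quantile normalization 6 sterol members fell (25%, against 17.6% of genes), and without the deprived shYAP3 library 5 fell (20.8%, against 19.9%). Without the shYAP1 control or the shYAP3 control library 0 fatty acid members fell, against 4.78% and 5.02% of genes. With length and GC trends removed, 3 fatty acid (25%) and 4 sterol members (16.7%) were lower, against 17.7% of genes. The sterol share then lay near the background. The sterol median minus the fatty acid median of the log2 change was 0.12, against 0.29 in the main fit. In that main fit the median log2 change was -0.29 over the fatty acid members and 0.01 over the sterol members. Over all genes tested it was 0.05. Called means an adjusted p under 0.05 in limma over all genes passing the filter, as all 36 members did. In bulk libraries, fewer cells with a transcript and less of it per cell cannot be told apart.

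**Figure D1:**
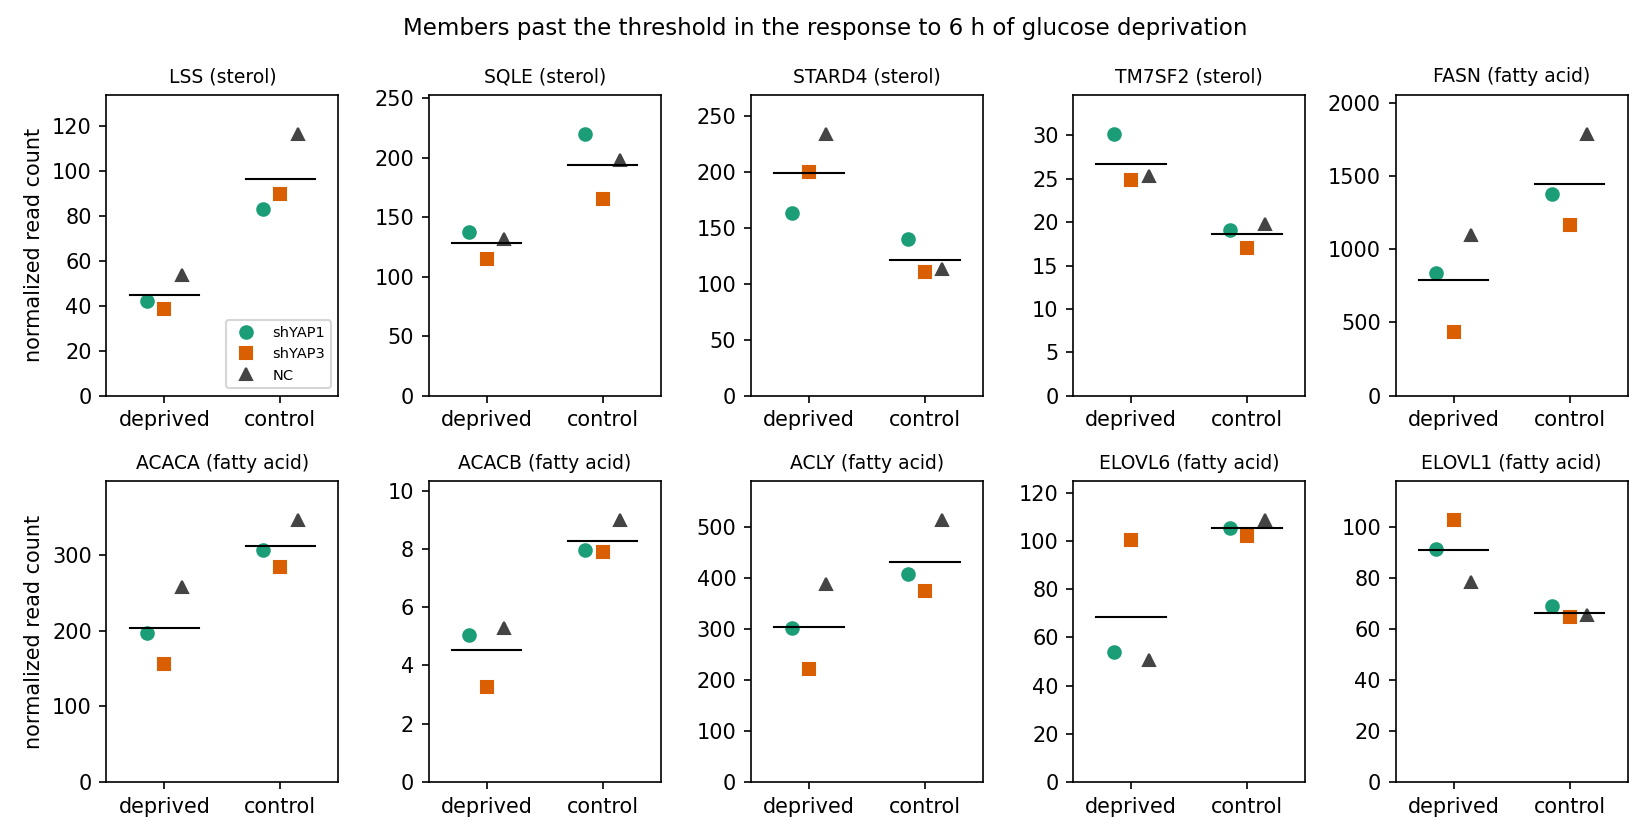
Normalized read count (vertical axes, linear, from 0) of the 10 members past the threshold in the response, in deprived and control medium. Points are single libraries, green circles shYAP1, orange squares shYAP3 and grey triangles NC, and black lines are means of 3. Deprived and control libraries did not overlap for any member drawn except ACLY, and the deprived shYAP3 library of ELOVL6, at 100.4, lay close to its control libraries.

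Acetyl-CoA supply and chain synthesis held 4 of the 5 falling fatty acid members. FASN, the synthase that builds palmitate, had 836, 434 and 1098 normalized counts in deprived shYAP1, shYAP3 and NC cells, against 1375, 1166 and 1784 in control cells (789 ± 334 against 1442 ± 315, mean ± SD over 3 libraries). Each deprived library was below every control library, and the log2 change was -0.95 (SE 0.24, adjusted p = 0.018). ACACA, the cytosolic acetyl-CoA carboxylase that supplies malonyl-CoA, had 198, 156 and 258 in deprived shYAP1, shYAP3 and NC cells, against 308, 285 and 346 in control cells. The groups did not overlap, with a log2 change of -0.64 (SE 0.15, adjusted p = 0.014), which was -0.26 with length and GC trends removed (adjusted p = 0.057).

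ACACB, the mitochondrial-membrane carboxylase whose malonyl-CoA restrains fatty acid oxidation, was low throughout. It had 5.05, 3.26 and 5.27 in deprived shYAP1, shYAP3 and NC cells, against 7.95, 7.91 and 8.97 in control cells (log2 change -0.77, SE 0.17, adjusted p = 0.012). All 3 deprived libraries were below the control libraries, on a scale of log2(value + 1) that understates changes of low genes. With length and GC trends removed its log2 change was -0.29 (adjusted p = 0.094). ACLY, which cleaves citrate to cytosolic acetyl-CoA, had 303, 222 and 388 in deprived shYAP1, shYAP3 and NC cells, against 407, 374 and 513 in control cells. Its groups overlapped, since the deprived NC library lay above the control shYAP3 library, and each construct was lower after deprivation (log2 change -0.53, SE 0.16, adjusted p = 0.033). ACSS2, which makes acetyl-CoA from acetate, did not pass the test (log2 change -0.05).

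Of the 7 members for desaturation, elongation and activation 1 was higher and 1 lower, shares near the 16.5% and 15.6% of all genes. ELOVL6, which lengthens palmitate to stearate, had 53.7, 100.4 and 50.7 in deprived shYAP1, shYAP3 and NC cells, against 106, 102 and 108 in control cells. Deprived shYAP1 and NC cells were far below their control libraries and deprived shYAP3 cells were not (log2 change -0.69, SE 0.23, adjusted p = 0.046). The call was lost in edgeR (adjusted p = 0.057), without the filter (0.077) and without the mean-variance trend (0.052). ELOVL1, an elongase of very long saturated and monounsaturated chains, rose, with 91.4, 103 and 78.5 in deprived shYAP1, shYAP3 and NC cells against 69.2, 64.6 and 65.5 in control cells. All deprived libraries were above all control libraries, with a log2 change of 0.44 (SE 0.13, adjusted p = 0.036).

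SCD, the stearoyl-CoA desaturase that makes oleate, was the highest member per transcript length, at a mean of 1472 in control medium on a TPM scale computed from the recovered reads and the longest annotated transcript. On the same scale FASN followed at 493 and FDFT1 at 418, and ACACB was lowest at 2.60. SCD, named after its values were seen, had 1844, 1152 and 2415 normalized counts in deprived shYAP1, shYAP3 and NC cells, against 2803, 2100.2 and 3180.0 in control cells. It was lower after deprivation within each construct and missed the threshold (log2 change -0.62, SE 0.22, adjusted p = 0.057). It passed in edgeR (adjusted p = 0.0498), in DESeq2 (0.0081), without the mean-variance trend (0.049), scaled to listed reads (0.0082) and with quantile normalization (0.0055). SCD did not pass with length and GC trends removed (-0.45, adjusted p = 0.081). When libraries were left out in turn, it was called only without the deprived shYAP1 library. The elongase ELOVL5, the desaturases FADS1 and FADS2, the acyl-CoA synthetase ACSL3 and ACSS2 had log2 changes between -0.05 and 0.12. Their adjusted p ran from 0.53 to 0.98, and of these FADS1 was called higher with length and GC trends removed.

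In the sterol branch none of the 7 mevalonate enzymes passed the main test. HMGCS1, which makes HMG-CoA and was named after its values were seen, had 154, 268 and 265 in deprived shYAP1, shYAP3 and NC cells, against 289, 267 and 395 in control cells. The shYAP3 libraries differed little from each other while those of shYAP1 and NC were apart (log2 change -0.49, SE 0.20, adjusted p = 0.085). HMGCS1 passed with length and GC trends removed (-0.74, adjusted p = 0.0022), with quantile normalization (-0.75, adjusted p = 0.0090), scaled to listed reads (-0.80, adjusted p = 0.0061) and without the deprived shYAP3 library (-0.73, adjusted p = 0.000225). MVK, the mevalonate kinase, also named after its values were seen, had 33.6, 31.7 and 37.8 in deprived shYAP1, shYAP3 and NC cells, against 45.7, 40.7 and 46.6 in control cells. Its groups did not overlap, and its log2 change of -0.36 (SE 0.13) had an adjusted p of 0.062. MVK passed in edgeR (adjusted p = 0.047), with quantile normalization (0.036), scaled to listed reads (0.0075) and without the deprived shYAP3 library (0.023). It did not pass in DESeq2 (adjusted p = 0.052) or with length and GC trends removed (-0.13, adjusted p = 0.37). The acetoacetyl-CoA thiolase ACAT2 and the later enzymes PMVK, MVD, IDI1 and FDPS lay between -0.24 and 0.11 on the log2 scale, and of these FDPS was called lower with quantile normalization, scaled to listed reads and without the deprived shYAP3 library.

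Squalene and sterol ring enzymes included the member with the largest change. LSS, the lanosterol synthase that closes the sterol rings, had 42.2, 38.7 and 53.8 in deprived shYAP1, shYAP3 and NC cells, against 83.4, 89.7 and 116 in control cells (44.9 ± 7.89 against 96.5 ± 17.6, mean ± SD over 3 libraries). Every deprived library was below every control library, with a log2 change of -1.09 (SE 0.13, adjusted p = 0.0011). SQLE, the squalene epoxidase one step before LSS, had 138, 115 and 132 in deprived shYAP1, shYAP3 and NC cells, against 219.6, 165 and 198 in control cells. It fell without overlap (log2 change -0.59, SE 0.15, adjusted p = 0.020).

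The same part of the pathway held a gene that rose. TM7SF2, a C14-sterol reductase, had 30.1, 24.8 and 25.3 in deprived shYAP1, shYAP3 and NC cells, against 19.1, 17.0 and 19.8 in control cells. The groups did not overlap (log2 change 0.50, SE 0.15, adjusted p = 0.032). The other 8 enzymes from FDFT1, the squalene synthase, to DHCR7, which completes cholesterol, did not pass the main test. Their log2 changes ran from -0.09 for NSDHL to 0.26 for MSMO1. Of these SC5D was called higher without the deprived shYAP1 library. STARD4, which carries sterol between membranes, rose, with 163, 199.6 and 233 in deprived shYAP1, shYAP3 and NC cells against 139.8, 111 and 113 in control cells. Its groups did not overlap, though the shYAP1 libraries lay closest together (log2 change 0.70, SE 0.17, adjusted p = 0.015).

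None of the 5 SREBP regulators passed the main test, and 3 passed under other settings. INSIG1, a retention protein and a known SREBP target, had 178, 144 and 168 in deprived shYAP1, shYAP3 and NC cells, against 254, 173 and 227 in control cells (log2 change -0.40, adjusted p = 0.10). Each construct was lower after deprivation, but the highest deprived library exceeded the lowest control library. INSIG1 was called lower in DESeq2 (adjusted p = 0.049), with quantile normalization (0.023), scaled to listed reads (0.010) and with length and GC trends removed (0.034). INSIG2, the second retention protein, had 82.4, 126 and 54.8 in deprived shYAP1, shYAP3 and NC cells, against 79.96, 62.5 and 53.7 in control cells (log2 change 0.36, adjusted p = 0.19). Only the shYAP3 libraries were clearly apart.

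SREBF1 had 154, 96.8 and 155 in deprived shYAP1, shYAP3 and NC cells, against 124, 107 and 133 in control cells (log2 change 0.13, adjusted p = 0.60). It was called higher with length and GC trends removed (0.41, adjusted p = 0.016) and without the deprived shYAP3 library (0.34, adjusted p = 0.021), and its sign turned under both other scalings. SREBF2 had 277, 192 and 322 in deprived shYAP1, shYAP3 and NC cells, against 281, 254 and 312 in control cells (log2 change -0.13, adjusted p = 0.58). For both factors the deprived shYAP3 library was the lowest of all 6. SCAP, the escort that carries SREBP to the Golgi, had 46.5, 33.6 and 49.4 in deprived shYAP1, shYAP3 and NC cells, against 50.4, 50.03 and 56.0 in control cells (log2 change -0.28, adjusted p = 0.18). All its deprived libraries lay below its control libraries, and it passed scaled to listed reads (adjusted p = 0.027). With length and GC trends removed SCAP was at -0.03 (adjusted p = 0.83).

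**Figure D2:**
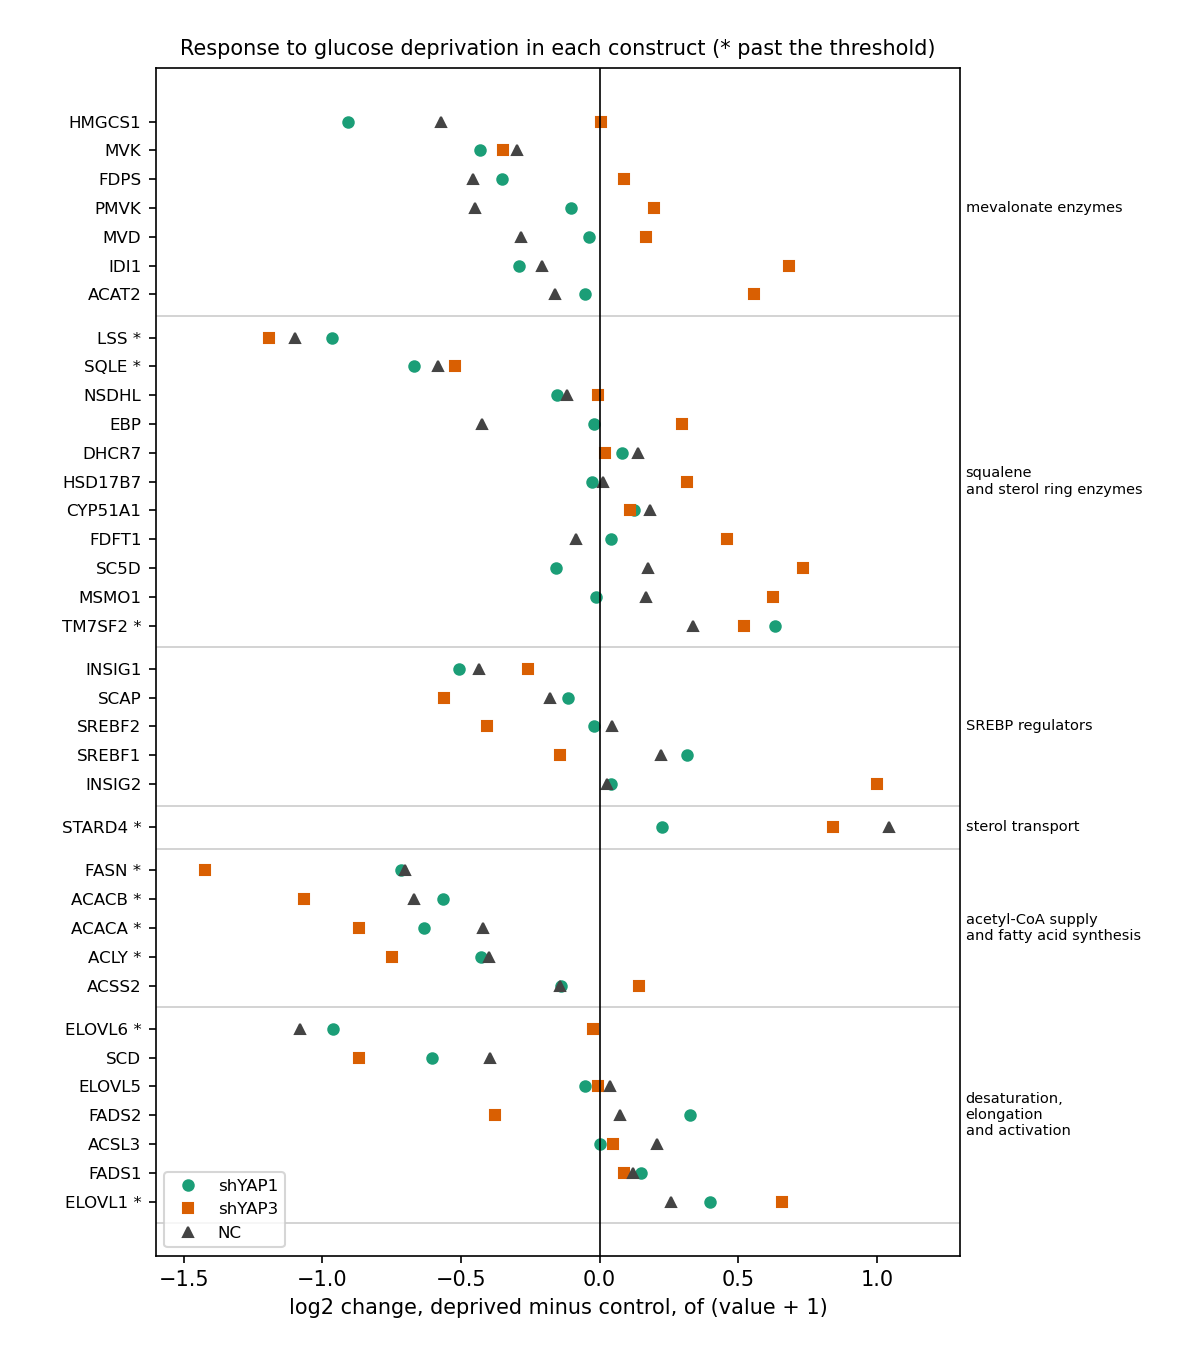
Log2 change of (value + 1), deprived minus control (horizontal axis), of each of the 36 members within each construct, grouped by role, with green circles for shYAP1, orange squares for shYAP3 and grey triangles for NC. Asterisks mark the 10 members past the threshold; the acetyl-CoA and synthesis genes lie left of 0 in nearly all constructs, whereas several mevalonate and sterol ring genes lie right of 0 in shYAP3 only.

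As a plain count, the members whose 3 deprived libraries all lay below the 3 control libraries were 4 of 12 fatty acid genes (ACACA, ACACB, FASN and ELOVL6) and 4 of 24 sterol genes (MVK, SQLE, LSS and SCAP), against 23.8% of genes tested. The reverse held for 1 of 12 (ELOVL1) and 2 of 24 (TM7SF2 and STARD4), against 26.8%.

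The gap between the branches, the sterol median minus the fatty acid median of the log2 change, was 0.24 in shYAP1, 0.34 in shYAP3 and 0.13 in NC cells. It was positive in all 3 and has no test, since members are not replicates. In shYAP3 cells the sterol median was 0.14, against -0.04 in shYAP1 and -0.14 in NC cells. The fatty acid median was -0.28 in shYAP1, -0.20 in shYAP3 and -0.27 in NC cells. A log2 change below 0 was found for 17, 8 and 14 of the 24 sterol members in shYAP1, shYAP3 and NC cells, and for 8, 8 and 7 of the 12 fatty acid members. The median over all genes tested was 0.03, 0.04 and 0.02 in the same order of constructs.

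As a share of listed reads, the fatty acid members took 0.362%, 0.225% and 0.476% in deprived shYAP1, shYAP3 and NC cells, against 0.622%, 0.542% and 0.736% in control cells. The sterol members took 0.292%, 0.274% and 0.329% in deprived cells of the same constructs, against 0.386%, 0.340% and 0.410% in control cells. Both shares were lower after deprivation within each construct. The widest 95% Wilson interval of a share spanned 0.00747 percentage points and covers counting error only. SCD and FASN together made up 69.5%, 60.0% and 72.4% of the fatty acid reads in deprived shYAP1, shYAP3 and NC cells, against 74.8%, 71.6% and 76.1% in control cells. A share depends on the reads of all listed genes. The 10 highest genes of a library took 10.2%, 9.0% and 9.78% of reads in deprived shYAP1, shYAP3 and NC cells, against 8.41%, 7.79% and 8.17% in control cells. All values summed to 1065950, 1172290 and 1018050 in deprived cells of these constructs, against 899067, 841186 and 885723 in control cells. The median value was 18.2, 17.8 and 18.4 in deprived cells, against 18.4, 18.1 and 18.2. The part of these shifts in the lower shares was not tested.

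**Figure D3:**
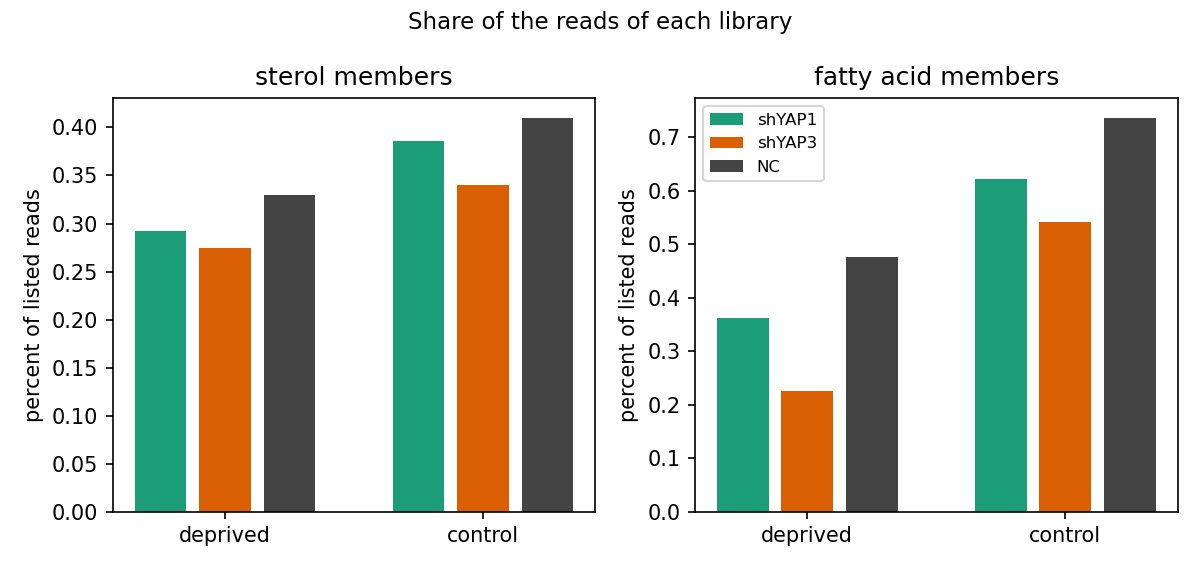
Share of the listed reads of each library (vertical axes, percent, from 0) taken by the 24 sterol members (left) and the 12 fatty acid members (right), in deprived and control medium, 1 bar per library. The fatty acid share was 0.225% to 0.476% in deprived and 0.542% to 0.736% in control libraries, and the sterol share 0.274% to 0.329% and 0.340% to 0.410%.

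Transcript length differed between the branches and moved with the response. The longest annotated transcript had a median of 5217.5 nt for fatty acid and 3048.5 nt for sterol members, against 3723 nt for all genes tested, and FASN (8565 nt), ACACB (9360 nt) and ACACA (9961 nt) were the longest members. Across the 36 members, Spearman's rho between length and log2 change was -0.30 in shYAP1, -0.61 in shYAP3 and -0.18 in NC cells. These are descriptions, since members share each library.

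With length and GC trends removed, the log2 changes of ACACA and ACACB were -0.26 and -0.29 and neither passed (adjusted p = 0.057 and 0.094), and STARD4 was at 0.31 (adjusted p = 0.10). FASN and LSS were among those that still passed, at -0.47 (adjusted p = 0.023) and -0.79 (adjusted p = 0.00067). The part of length in the response was not tested beyond this. Without the deprived shYAP3 library, 5 fatty acid members were lower (41.7%) and 1 higher (8.33%). Of the sterol members 5 were lower (20.8%) and 3 higher (12.5%). Over all genes in this fit, 19.9% were lower and 23.5% higher. The log2 changes were then -0.64 for FASN, -0.9998 for ELOVL6 and -1.05 for LSS.

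**Figure D4:**
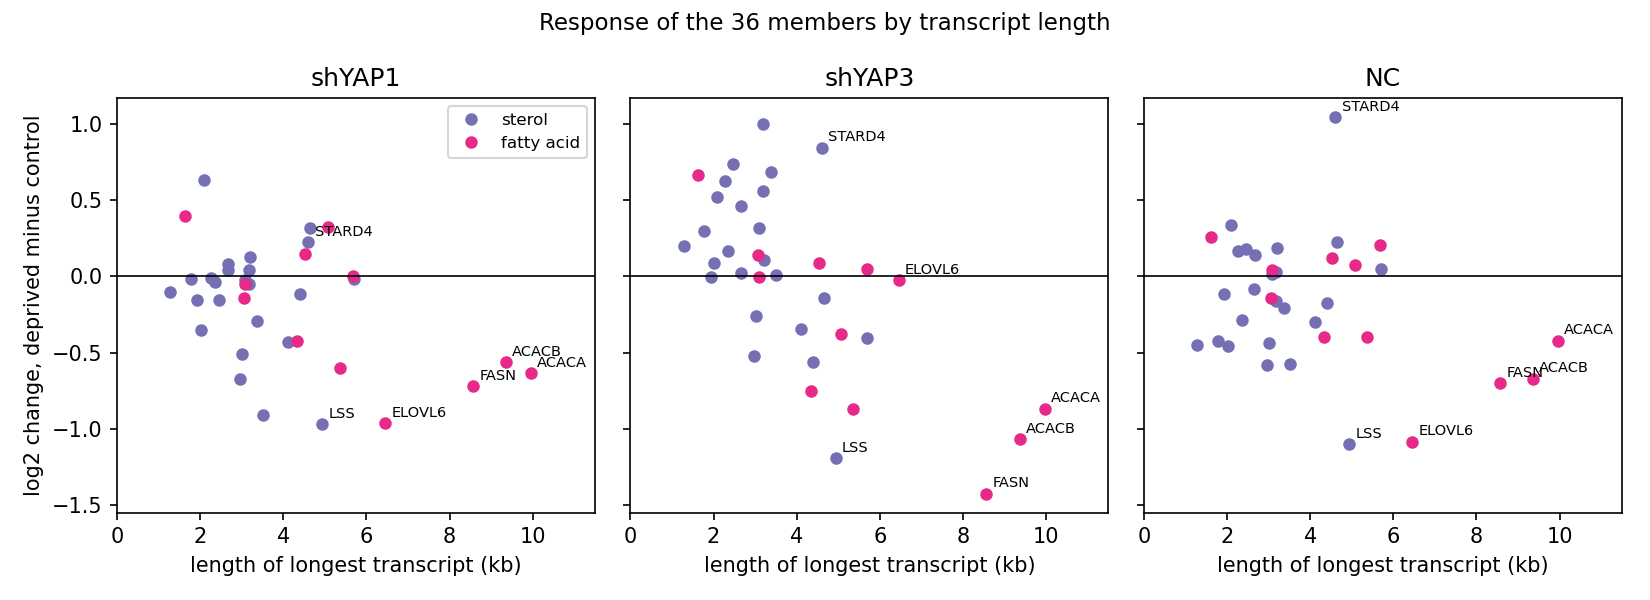
Log2 change of (value + 1), deprived minus control (vertical axes), against the length of the longest annotated transcript in kb (horizontal axes) for the 36 members in shYAP1, shYAP3 and NC cells, with sterol members in purple and fatty acid members in pink. The members over 8 kb, ACACA, ACACB and FASN, lie below 0 in all 3 panels, and the slope is steepest in shYAP3, with a rho of -0.61.

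The calls depended on few libraries. Of the 36 members 10 were called, a share near the 32.1% of all genes. Of these, LSS alone passed whichever library was left out and under all 9 other settings, and SQLE, ACLY and FASN passed under all 9 other settings. Against a background of 4.78% to 5.94% of genes lower, the 5 falling fatty acid members became 0 without the shYAP1 control or the shYAP3 control library, and 1 without the NC control or the NC deprived library. The 2 falling sterol members became 1 when each of these 4 libraries was left out in turn. The 2 rising ones became 1 without the shYAP1 control library and 0 without the other 3. ELOVL1 was no longer called in any of these 4 cases. In them 3.88% to 5.73% of all genes were called higher, against 16.5% in the main fit. When either NC library is left out, the other is taken up by the genotype term. Both fits then give the response of the same shYAP libraries (LSS at -1.08 in both) and are not separate checks. With values scaled to listed reads, which moves the median of all genes to -0.24, no member was called higher, against 6.09% of genes. Quantile normalization left ELOVL1 uncalled.

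No member passed the test of shYAP against NC cells over both media, where 0.00815% of genes did, YAP1 alone. DESeq2 called 7 genes (0.0571%) and edgeR 1 (0.00815%), none of them members. At an unadjusted limma p under 0.05, ACLY, ACACA, FASN, SCD and LSS were lower and INSIG2 higher, 6 of 36 members against 7.32% of genes, with adjusted p of 0.58. FASN had a log2 difference of -0.68 (SE 0.25), SCD one of -0.56 (SE 0.23), ACLY one of -0.49 (SE 0.17), LSS one of -0.41 (SE 0.13) and ACACA one of -0.39 (SE 0.16), against 0.64 (SE 0.21) for INSIG2. The NC library was the highest of the 3 in both media for 8 of 12 fatty acid members (ACLY, ACSS2, ACACA, ACACB, FASN, SCD, ELOVL5 and FADS2) and for 9 of 24 sterol members, against 20.8% of genes. It was the lowest in both for SC5D, the lathosterol oxidase, and INSIG2, against 16.4%. The NC group has 1 library per medium, so its own spread is unknown.

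The response itself was compared between shYAP and NC cells, and no gene passed in limma or edgeR (0%), while DESeq2 called 1 gene (0.00815%) and no member. At an unadjusted limma p under 0.05 there were 111 genes, 0.905% of those tested, and none of the 36 members. The members with the largest differences were ELOVL6 at 0.59 (SE 0.50), EBP, the sterol isomerase, at 0.56 (SE 0.31) and STARD4 at -0.51 (SE 0.35), each with an adjusted p of 0.99997. Both constructs enter this difference and they were not alike: ELOVL6 changed by -0.96 in shYAP1, -0.02 in shYAP3 and -1.08 in NC cells on the log2 scale, and STARD4 by 0.22, 0.84 and 1.04.

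With the deprived shYAP1 library left out, the difference rests on the deprived shYAP3 library alone, and 8 members passed among 22.4% of genes: SC5D, INSIG2, ACAT2, IDI1, EBP, PMVK and ELOVL6 higher and FASN lower. With the deprived shYAP3 library left out it rests on the deprived shYAP1 library, and STARD4 alone passed, lower, among 2.28% of genes. A single library is assumed there to vary like the others.

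Counts in the wider lists are read against the 15.6% of all genes lower and 16.5% higher. Of 13 glycerolipid synthesis genes, which join fatty acids to glycerol, 4 were lower (GPAM, AGPAT3, LPIN3 and DGAT2) and 0 higher, with a median log2 change of -0.35 against 0.05 over all genes. AGPAT3, an acyltransferase, had 29.4, 26.6 and 38.2 in deprived shYAP1, shYAP3 and NC cells, against 53.7, 56.8 and 62.4 in control cells (log2 change -0.87, adjusted p = 0.0031). DGAT2, which makes triglyceride, had 1.97, 1.18 and 1.44 in deprived shYAP1, shYAP3 and NC cells, against 3.69, 3.73 and 4.05 in control cells (log2 change -0.94, adjusted p = 0.0059). LPIN3, a phosphatidate phosphatase, was at -0.76 (adjusted p = 0.0071). None of the 3 had overlapping groups.

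Fatty acid oxidation had 2 genes higher and 2 lower of 14, near the background. PPARA, a transcription factor for oxidation genes, had 7.67, 4.37 and 7.40 in deprived shYAP1, shYAP3 and NC cells, against 14.1, 14.3 and 15.1 in control cells (log2 change -1.08, adjusted p = 0.0053). ACADM, the medium-chain acyl-CoA dehydrogenase, had 81.5, 124 and 65.2 in deprived shYAP1, shYAP3 and NC cells, against 56.6, 49.0 and 40.7 in control cells (log2 change 0.84, adjusted p = 0.0097). CPT2, the inner-membrane carnitine palmitoyltransferase, fell by 0.51 on the log2 scale (adjusted p = 0.030). Among 20 other genes of fatty acid synthesis and elongation 1 rose, the arachidonate-preferring ligase ACSL4 at 0.53 (adjusted p = 0.016), and 1 fell, ACSL1 at -0.40 (adjusted p = 0.047). HSD17B12, the ketoacyl-CoA reductase of elongation, was at 0.51 and did not pass (adjusted p = 0.067).

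Around the sterol branch, 1 of 10 SREBP processing genes was higher and 2 were lower. UBE2G2, a ubiquitin-conjugating enzyme of reticulum-associated degradation, had 67.1, 61.3 and 70.0 in deprived shYAP1, shYAP3 and NC cells, against 126, 118 and 118 in control cells (log2 change -0.86, adjusted p = 0.0026). RNF139, a ubiquitin ligase of the reticulum, had 86.8, 70.1 and 71.8 in deprived shYAP1, shYAP3 and NC cells, against 55.0, 42.5 and 43.6 in control cells (log2 change 0.69, adjusted p = 0.012). Both were without overlap between media. NPLOC4, a cofactor of the segregase VCP, was at -0.49 (adjusted p = 0.028), and at -0.21 and not called with length and GC trends removed.

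Of 11 genes of sterol efflux, uptake and esterification, 3 rose (NPC1, NPC2 and OSBPL8) and SCARB1 fell. SCARB1, the HDL receptor, was at -0.55 (adjusted p = 0.028), NPC2, which binds cholesterol in lysosomes, at 0.44 (adjusted p = 0.030) and OSBPL8, a lipid transfer protein, at 0.52 (adjusted p = 0.048). Of 8 isoprenoid branch and other sterol enzymes, LBR, a C14-sterol reductase of the nuclear membrane, fell, with 91.9, 98.9 and 118 in deprived shYAP1, shYAP3 and NC cells against 167, 171 and 168 in control cells (log2 change -0.71, adjusted p = 0.0063). LBR thus moved in the opposite direction to TM7SF2, the other C14-sterol reductase. ACAT1, the mitochondrial thiolase, was at 0.62 (adjusted p = 0.048), and POR, the reductase that feeds electrons to sterol oxidations, was at 0.21 and did not pass. Of the 16 genes of these wider lists given with a value and past the threshold, UBE2G2, AGPAT3 and PPARA passed whichever library was left out. With length and GC trends removed, NPC2 was at 0.05, SCARB1 at -0.21 and ACAT1 at 0.29, none of them called. ACAT1 passed under 3 and OSBPL8 under 4 of the 9 other settings.

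Some members share sequence with other genes. The strand of the libraries was not given in the sources used here, and exons of ACAT2 overlap TCP1 and SOD2 on the opposite strand, as do those of FADS1 with FADS2, MVK with MMAB, SREBF1 with RAI1, and LSS with an antisense gene listed at a mean of 0.482. On the same strand, CYP51A1 shares 2844 exon bases with the protein-coding gene AC000120.2, which is not listed. FADS2 shares 49 with FEN1 and TM7SF2 shares 16 with VPS51, which are listed at means of 175.3 and 85.9. Reads of these pairs may be mixed. Named pseudogenes exist for FDPS (8), CYP51A1 (3), HSD17B7 (2), SCD (1) and FADS2 (1), and none is listed in the table, so the counts of these members are uncertain to that extent.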

How the data were processed

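Per the labels' protocols, mRNA was selected with oligo-dT, fragmented, and made into Illumina libraries. The tools Bowtie2 and BWA and the build hg19 are named in the submitters' processing notes. The counter, annotation, strand and scaling are not given in the sources used here. The deposited signal is a normalized read count per gene, and 100% of values were whole multiples of 1 read (tolerance 0.01), worth 0.0406 to 0.0693.

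The 12263 genes reaching a value of 1 in 2 or more libraries were tested with limma (version 3.58.1, R 4.3.3) on log2(value + 1), with Benjamini-Hochberg adjustment at 0.05. The response and the knockdown came from a model of genotype and medium, and the difference of the response from 1 mean per genotype and medium. edgeR (4.0.16) and DESeq2 (1.42.0) on recovered reads were alternatives. The model was also run on simulated counts with known changes. These held no difference between constructs and no length or GC tilt, so they could not check the calls for either. Length and GC content came from GENCODE v29 (GRCh38), and no coordinates of hg19 are given.

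Members and gene lists were chosen with earlier results of these data known. Values are given for called members, SREBP regulators, the 4 members per branch with the largest response and up to 3 genes per wider list with the smallest p. HMGCS1, MVK and SCD were added after their values were seen.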

Additional observations from a re-analysis of the deposited data

How the results depend on the processing

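Among the settings beside the main one, the falling sterol count was 6 with quantile normalization (25%, against 17.6% of all genes). It was 7 scaled to listed reads (29.2%, against 31.1%) and 4 with length and GC trends removed (16.7%, against 17.7%). The rising sterol count was 0 scaled to listed reads, where 6.09% of genes were higher. The rising fatty acid count was 0, 0 and 2 under these 3 settings, against 14.8%, 6.09% and 19.9% of genes. The falling one was 3 with length and GC trends removed (25%), where the gap between branch medians was 0.12 against 0.29. Leaving out 1 library gave 0 to 3 rising and 1 to 5 falling sterol members, 0 to 1 rising and 0 to 5 falling fatty acid members, 0 to 8 members in the difference of the response and a gap of 0.15 to 0.34. In the response, these fits called 3.88% to 23.5% of all genes higher and 4.78% to 19.9% lower. The difference of the response could not be fitted without an NC library. The knockdown count of members was 0 throughout.

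Small changes turned direction: INSIG2 to -0.12 and SREBF2 to 0.23 with length and GC trends removed, where SREBF1 was called higher at 0.41, SREBF1 to -0.029 with quantile normalization, and, with values scaled to listed reads, SREBF1 to -0.17 and POR to -0.093. Without a library SREBF1 lay between -0.047 and 0.34, called at the upper value, and SREBF2 between -0.25 and 0.049. The cause was not tested.

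With the construct as a replicate block, the falling fatty acid count was 6 (50%, against 17.4% of genes), SCD being added (adjusted p = 0.019). HSD17B12 passed there (adjusted p = 0.035) while ACSL1 did not (adjusted p = 0.051). Pairing was not established: the same construct's deviations had correlations of 0.010 for shYAP1, 0.33 for shYAP3 and 0.46 for NC. With 3 libraries per medium and 1 NC library in each, small changes could not be detected.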
